A study of Mus musculus with 6 samples.

Results

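The transcripts of 39 ribosome biogenesis factors were examined in mouse embryonic fibroblasts (MEFs) that lack the mitochondrial protease YME1L. The 39 genes were listed by name, with earlier results of these data known, and each was found in a locus of its own among the 51499 loci of the count table. Ribosomes are assembled in the nucleolus, where RNA polymerase I transcribes the precursor of the ribosomal RNAs (rRNAs). Small nucleolar ribonucleoproteins (snoRNPs) and methyltransferases modify the precursor, and a succession of assembly factors cuts, folds and packs it into the small and the large ribosomal subunit. Dividing cells, such as cultured fibroblasts, make these factors in large amounts.

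Both genotypes were cultured MEF lines immortalized with SV40. The labels give the genotype of the WT cultures as Yme1l fl/fl, with loxP sites in the gene, and that of the others as Yme1l-/-. Per the study's methods, both kinds are clonal lines derived from floxed fibroblasts after exposure to Cre. RNA of 3 cultures of each genotype was sequenced after poly(A) selection. The sources used here do not say whether the cultures of a genotype came from a single clone, so effects of the genotype and differences between clones cannot be told apart, and p-values measure the spread between cultures.

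The libraries held between 33180867 and 49351107 counted fragments, with Yme1l-/- replicates 2 and 3 the deepest. Yme1l1, as the targeted gene is named in the tables, had 191, 192 and 183 CPM in WT and 37.9, 38.9 and 40.6 CPM in Yme1l-/-, which left 20.7% of the level in WT (log2 fold change -2.27 ± 0.05, SE, edgeR adjusted p 2.43e-11). CPM is the fragment count per 1000000 fragments of the scaled library size. Of 10 fibroblast markers, 9 had at least 312 fragments in each library, and Thy1 had between 0 and 6. Their summed level was 12017 to 12516 CPM in WT and 8281 to 8882 CPM in Yme1l-/-, with 6 of the markers called lower, from Col3a1 (log2 fold change -2.48) and Vim (-1.33) to Pdgfrb (-0.34), and 2 called higher, Col1a1 (0.43) and Sparc (0.68). The 5 haematopoietic markers summed to 1.74 to 1.96 CPM in WT and 3.77 to 4.14 CPM in Yme1l-/-, and the 5 endothelial markers to 0.949 to 1.56 and 1.94 to 2.17 CPM. The 4 neuronal markers, nearly all Map2, summed to 22.7 to 27.5 CPM in WT and 6.37 to 8.52 CPM in Yme1l-/-. Ptprc had at most 1 fragment in a library, and Adgre1, Cd3e and Snap25 were at 0 in all of them. The 5 epithelial markers summed to 32.9 to 34.9 CPM in WT, nearly all from Krt18, and to at most 0.686 CPM in Yme1l-/-. The part of these marker levels in the results was not tested.

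The ribosome biogenesis transcripts moved in both directions and by small amounts. Of the 39 members, 27 (69.2%) differed between the genotypes, 12 higher and 15 lower in Yme1l-/- (edgeR's quasi-likelihood test, adjusted p under 0.05 over 13867 loci). Among all loci tested, 67.7% were called, 33.6% higher and 34.1% lower, so in this fit the share of members called was close to that of all loci. With the median of each gene's chromosome removed, 20 members were called, 6 higher and 14 lower. Of all loci 31.1% were then higher and 31.7% lower. Without Yme1l-/- replicate 3 the split was 13 higher and 9 lower, against 4441 and 4478 of 14072 loci. Under upper-quartile scaling the split was 14 higher and 8 lower, but that scaling moved the whole table up, with 37.3% of all loci called higher and 30.3% lower. It raised each member by 0.059 to 0.060 on the log2 scale and the median of all loci by 0.059, so calls lost or gained under it follow from a shift common to all genes. The 39 members had a median log2 fold change of -0.02 (interquartile range -0.17 to 0.16), against -0.0041 (-0.36 to 0.41) for all loci. The members' median lay 0.019 below that of all loci under both scalings, and 0.011 above it without Yme1l-/- replicate 3, where it was 0.0062. In bulk RNA, fewer cells that express a gene and less RNA per cell cannot be told apart.

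Most differences among the members were small. A call with at least 1.5-fold change was made for 3 of 39 members (Rrp1, Bop1 and Brix1), against 31.8% of all loci and 19.3% of loci at the members' level, those 5467 with a mean CPM at or above that of Nop10, the lowest member. No member reached 2-fold, against 17.7% of all loci and 5.58% of those at the members' level. The median size of the log2 fold change, without its sign, was 0.17 for the members, 0.38 for all loci and 0.30 for those at the members' level. Of the latter 75.1% were called, 1739 higher and 2365 lower. Their median log2 fold change was -0.07 (interquartile range -0.35 to 0.23), and the members' median of -0.02 lay above it.

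The summed level of the 39 transcripts was similar in the genotypes. They summed to 11180, 11305 and 11074 CPM in WT and to 11350, 11260 and 10722 CPM in Yme1l-/-. These ranges overlap, with Yme1l-/- replicate 3 the lowest library and Yme1l-/- replicate 1 the highest. Without the TMM scaling they did not: the members took 1.09, 1.10 and 1.09% of all counted fragments in WT and 1.15, 1.15 and 1.11% in Yme1l-/-. Ncl and Npm1, with means of 2357 and 1576 CPM in WT, weigh most in the sum. By role, CPM sums were higher in all Yme1l-/- libraries for RNA polymerase I transcription and large subunit assembly. The latter summed to 1904 to 2014 CPM in WT and 2162 to 2334 CPM in Yme1l-/-. Sums were lower in all of them for the box H/ACA snoRNP, small subunit assembly and multifunctional nucleolar proteins. Those of the box C/D snoRNP overlapped. For 26 of the 39 members (66.7%) the libraries of the genotypes did not overlap, against 71.9% of all loci and 78.3% of loci at the members' level. In 12 members all Yme1l-/- libraries lay above WT (35.9% of all loci) and in 14 below (36.0% of all loci).

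**Figure D1:**
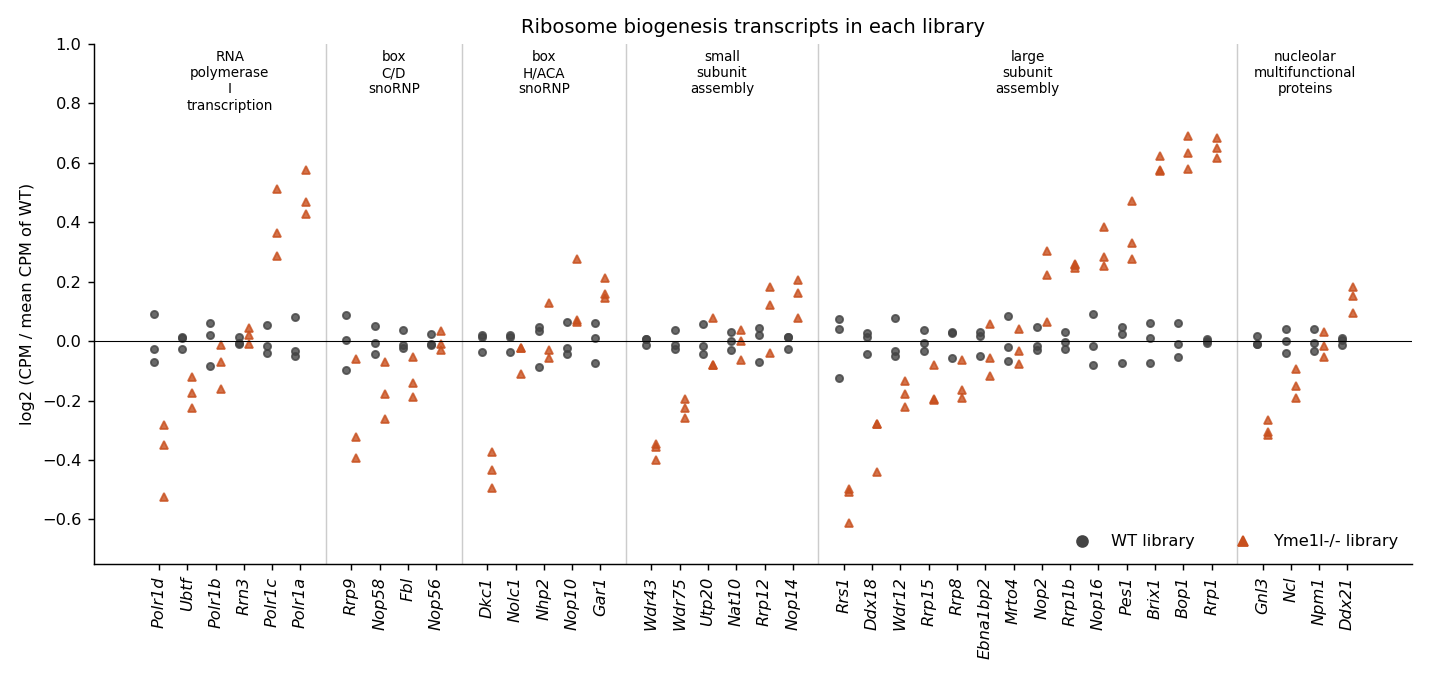
Each member's level in each library, as log2 of its CPM over the mean CPM of WT (vertical axis), for 39 genes grouped by role and ordered within a role by fold change (horizontal axis); circles are WT libraries and triangles Yme1l-/- libraries. Within the large subunit group the Yme1l-/- triangles run from Rrs1 far below the WT circles to Brix1, Bop1 and Rrp1 far above them, whereas Nop56, Npm1 and Nat10 lie on the WT level.

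Levels per transcript length differed widely among the members. On the FPKM scale, of which the deposited table gives 1 pooled value per genotype without replicates, Npm1 was highest with 1461 in WT and 1451 in Yme1l-/-, followed by Ncl with 663 and 616. Both encode abundant nucleolar phosphoproteins. The snoRNP proteins Nop58 (436 and 395 FPKM) and Nop56 (343 and 357 FPKM) came next. At the low end stood Rrn3, the initiation factor of RNA polymerase I, with 27.6 and 28.0 FPKM, and Wdr12 with 28.2 and 27.3 FPKM. The deposited pooled FPKM values carry no spread, so neighbours in this order cannot be tested.

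**Figure D2:**
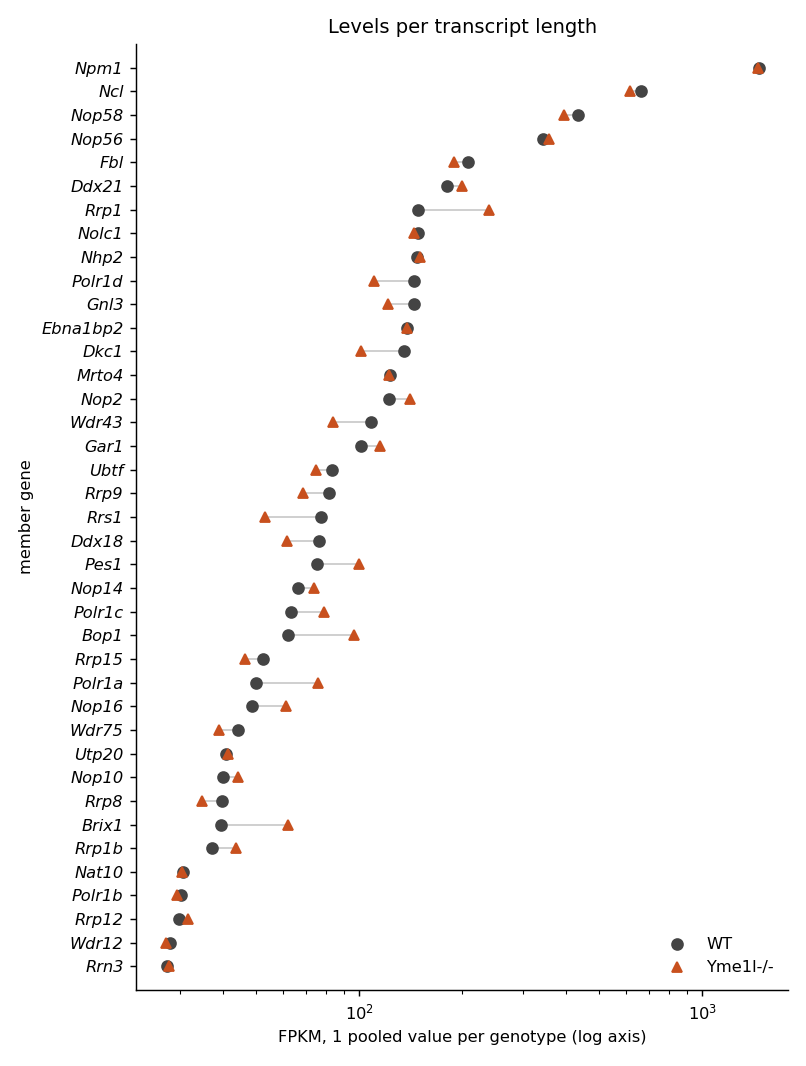
Deposited FPKM of the 39 members (horizontal log axis), 1 pooled value per genotype (circles WT, triangles Yme1l-/-), ordered by the WT value (vertical axis). The members range from 27.6 FPKM for Rrn3 to 1461 for Npm1 in WT, and the genotypes lie close together beside that range.

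Promoter windows were examined for the E-box CACGTG, the letters bound by Myc and related factors, which drive many ribosome biogenesis genes. RefSeq windows (build GRCm38.p6, 250 bases before to 50 after a start site) were at hand for 34 members, in 43 windows. The names without a window were Fbl, Rrp12, Bop1, Rrs1 and Npm1. The E-box, which reads the same on both strands, was found in 5 of the 43 windows (11.6%), against 7.15% of all 32851 windows in the table. The windows with an E-box belonged to Nop2, Pes1, Rrn3, Utp20 and Wdr43. Their GC content spanned 46 to 66%, and the median over the members' windows was 57% with 19 CpG dinucleotides, against 52.7% and 7 over all windows.

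Windows of 3 members are shown, picked to give 1 of each call in Yme1l-/- (Pes1 higher, Rrn3 not called, Wdr43 lower). With chromosome medians removed Pes1 was not called (0.01, edgeR adjusted p 0.94), and Rrn3 and Wdr43 kept these calls. Of the other members with an E-box, Nop2 was then not called and Utp20 was called lower. A link between the E-box and the direction was not tested. Capitals mark the E-box. They are chr11:3963725-3964024, chr16:13780449-13780748 and chr17:71615965-71616264, each on the plus strand.
Pes1: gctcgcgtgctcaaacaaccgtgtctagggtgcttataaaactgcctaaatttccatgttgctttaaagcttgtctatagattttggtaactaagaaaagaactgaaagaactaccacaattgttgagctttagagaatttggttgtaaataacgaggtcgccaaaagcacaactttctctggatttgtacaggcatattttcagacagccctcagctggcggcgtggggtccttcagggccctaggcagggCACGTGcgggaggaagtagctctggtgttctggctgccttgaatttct
Rrn3: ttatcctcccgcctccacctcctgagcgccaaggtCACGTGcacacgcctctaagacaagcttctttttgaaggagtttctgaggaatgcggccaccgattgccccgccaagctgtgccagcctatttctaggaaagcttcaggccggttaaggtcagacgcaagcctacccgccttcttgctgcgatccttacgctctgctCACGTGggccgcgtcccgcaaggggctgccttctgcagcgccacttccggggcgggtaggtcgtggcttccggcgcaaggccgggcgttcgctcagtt
Wdr43: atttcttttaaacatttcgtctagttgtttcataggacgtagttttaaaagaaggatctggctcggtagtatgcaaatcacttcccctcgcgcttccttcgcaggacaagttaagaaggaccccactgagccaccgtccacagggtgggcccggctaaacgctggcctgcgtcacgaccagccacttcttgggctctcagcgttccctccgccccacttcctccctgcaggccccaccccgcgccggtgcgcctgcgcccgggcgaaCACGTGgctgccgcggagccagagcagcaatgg
In Pes1 the E-box began 2 bases after the start site and in Wdr43 17 bases after it. Rrn3 had a pair of E-boxes, which began 215 and 48 bases before the start site. A match describes the letters and shows no binding.

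The genes of RNA polymerase I transcription went both ways. Polr1a (assembled locus on chromosome 6, 71909053 to 71984935, mm10), which encodes the largest and catalytic subunit, had 234, 237 and 257 CPM in WT and 327, 362 and 336 CPM in Yme1l-/-. All 3 Yme1l-/- libraries lay above the WT libraries, and the log2 fold change was 0.49 ± 0.05 (SE, edgeR adjusted p 8.2e-06). Polr1b, which encodes the other large subunit, had 109, 99.0 and 106 CPM in WT and 104, 99.9 and 93.9 CPM in Yme1l-/-. These ranges overlap, and the difference of -0.08 ± 0.06 (SE) was not called (edgeR adjusted p 0.213).

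The subunits that RNA polymerase I shares with RNA polymerase III differed in direction. Polr1c had 69.3, 66.1 and 64.9 CPM in WT and 95.2, 86.0 and 81.5 CPM in Yme1l-/-, an increase of 0.39 ± 0.06 on the log2 scale (SE, edgeR adjusted p 0.000148) without overlap. Polr1d had 141, 145 and 158 CPM in WT and 122, 103 and 116 CPM in Yme1l-/-, a log2 fold change of -0.38 ± 0.07 (SE, edgeR adjusted p 0.000333), also without overlap. Of the transcript stretches of 100 bases in Polr1d, 12.7% also occur in an annotated pseudogene, whose locus held 6.85% as many fragments. Ubtf encodes UBF, which binds along active rRNA genes, and had 254, 247 and 254 CPM in WT and 232, 223 and 215 CPM in Yme1l-/-. Its log2 fold change of -0.17 ± 0.04 (SE, edgeR adjusted p 0.00365) was small but separated the libraries. Rrn3 lay at 0.02 ± 0.04 (SE) and was not called (edgeR adjusted p 0.729). With the median of each gene's chromosome removed, the 4 calls kept their direction at other sizes, with Polr1a at 0.15 (edgeR adjusted p 0.0278), Polr1c at 0.22, Polr1d at -0.40 and Ubtf at -0.53.

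Within the box C/D snoRNP, whose guide RNAs direct 2′-O-methylation of rRNA, 3 of 4 members were lower and none was higher, where 34.1% of all loci were lower and 33.6% higher. Nop58, a core scaffold protein, had 430.3, 447 and 419 CPM in WT and 411, 382 and 360.4 CPM in Yme1l-/-, a log2 fold change of -0.17 ± 0.05 (SE, edgeR adjusted p 0.0172). Its partner Nop56 had 468, 480.1 and 469 CPM in WT and 483, 469 and 463 CPM in Yme1l-/-, and at -0.00 ± 0.04 (SE, edgeR adjusted p 0.973) no difference was detected. Fbl encodes fibrillarin, the methyltransferase, and was at -0.13 ± 0.05 (SE, edgeR adjusted p 0.0285), with 219, 210.4 and 212 CPM in WT and 206, 194 and 188 CPM in Yme1l-/-. Rrp9, a protein of the snoRNP for the early cuts in the small subunit precursor, was at -0.25 ± 0.08 (SE, edgeR adjusted p 0.0225). It was the only called member whose libraries overlapped, with 122, 115 and 107 CPM in WT and 110.0, 91.7 and 87.3 CPM in Yme1l-/-.

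The box C/D calls depended on the scaling, on single libraries and on the chromosome. With chromosome medians removed Fbl stayed lower (-0.12), and Nop58 (-0.01) and Rrp9 (0.11) were not called. All 3 were lost under upper-quartile scaling, where Fbl, Nop58 and Rrp9 were at -0.07, -0.11 and -0.19. Fbl was not called without WT replicate 1 (-0.11) or without Yme1l-/- replicate 2 (-0.12) or 3 (-0.10). Nop58 was not called without WT replicate 2 (-0.15) or Yme1l-/- replicate 3 (-0.12). Rrp9 was not called without WT replicate 1 (-0.21) or 2 (-0.26), nor without Yme1l-/- replicate 2 (-0.22) or 3 (-0.18). Stretches of 100 bases shared with annotated pseudogenes made up 52.6% of the Fbl transcripts and 22.5% of the Nop56 transcripts, so exchange of fragments with these copies is possible. The pseudogene loci in the table held 4.99% and 2.19% as many fragments as Fbl and Nop56. The loci of Nop56, Nop58, Gnl3 and Ncl also hold 4, 1, 2 and 1 annotated snoRNA genes, which poly(A) selection is not made to capture.

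In the box H/ACA snoRNP, which turns uridines of rRNA into pseudouridine, the transcript of the enzyme was lower and 1 of its 3 core partners was higher. Of the 5 members of this group 2 (40%) were called, against 67.7% of all loci (33.6% higher and 34.1% lower). Dkc1 (chromosome X, 75095854 to 75131016) encodes dyskerin, the pseudouridine synthase, and had 266, 265 and 256 CPM in WT and 202, 194 and 186 CPM in Yme1l-/-. With a log2 fold change of -0.43 ± 0.04 (SE, edgeR adjusted p 5.3e-06) it was the second lowest of all members. Gar1 rose slightly, from 50.5, 52.3 and 47.6 CPM in WT to 58.1, 55.9 and 55.4 CPM in Yme1l-/- (0.17 ± 0.05, SE, edgeR adjusted p 0.0106). Nop10 (0.14 ± 0.07) and Nhp2 (0.02 ± 0.06, log2 fold change ± SE), the remaining core proteins, were not called. Upper-quartile scaling brought Nop10 to 0.20 and a call as higher, as did a block for replicate numbers, at 0.14 (edgeR adjusted p 0.0178). Nolc1, which encodes a chaperone of snoRNPs, had 387, 386 and 373 CPM in WT and 376, 376 and 354 CPM in Yme1l-/- and was not called (-0.05 ± 0.04, SE). With chromosome medians removed Dkc1 was at -0.22 and Gar1 at 0.29, while Nhp2 at -0.34 (edgeR adjusted p 0.000436) and Nolc1 at -0.17 were called lower, so that Nhp2 then lay below Dkc1.

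Small subunit assembly held 6 members, of which 1 was higher, 2 were lower and 3 were not called (33.6% and 34.1% of all loci were higher and lower). Wdr43 and Wdr75 encode proteins of the early particle on the small subunit precursor that also act in rRNA transcription, and both were lower. Wdr43 had 367, 368 and 363 CPM in WT and 286, 288 and 277 CPM in Yme1l-/-, a log2 fold change of -0.37 ± 0.04 (SE, edgeR adjusted p 7.7e-06). Wdr75 had 123, 117 and 118 CPM in WT and 104, 102 and 99.7 CPM in Yme1l-/-, with -0.23 ± 0.04 on that scale (SE, edgeR adjusted p 0.000772). In both genes the libraries separated fully. Wdr43 was at -0.54 with chromosome medians removed, and Wdr75 at -0.07 was not called.

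Nop14, another protein of that particle, was higher, with 162, 167 and 167 CPM in WT and 191, 185 and 175 CPM in Yme1l-/- (0.15 ± 0.04, SE, edgeR adjusted p 0.0118). Without WT replicate 1 it was at 0.13 and not called (edgeR adjusted p 0.0527). Utp20 (-0.03 ± 0.05), Nat10 (-0.01 ± 0.05) and Rrp12 (0.09 ± 0.06, log2 fold change ± SE) were not called. Utp20 was called lower with chromosome medians removed (-0.32). Nat10 acetylates cytidines of small subunit rRNA, and Rrp12 takes part in the export of the small subunit precursor. A call as higher was made for Rrp12 without Yme1l-/- replicate 3 (0.16) and with upper-quartile scaling (0.15).

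Large subunit assembly held both ends of the list. Of its 14 members 7 were higher and 5 lower, where 33.6% and 34.1% of all loci were. Of the 7 higher calls, those of Nop16 and Rrp1 remained with chromosome medians removed. Rrp1 (chromosome 10, 78400384 to 78413043), a nucleolar protein of early large subunit particles, had 249.7, 248 and 251 CPM in WT and 382, 401 and 392 CPM in Yme1l-/-. This was the largest increase of all members, 0.65 ± 0.04 on the log2 scale (SE, edgeR adjusted p 8.62e-08), or 1.57-fold, and 0.35 with chromosome medians removed. Its paralogue Rrp1b rose less, from 111, 109 and 107 to 129.6, 131 and 130.4 CPM (0.25 ± 0.04, SE, edgeR adjusted p 0.000228), and was at 0.09 and not called with the medians removed. The GENCODE transcripts of Rrp1 share no stretch of 100 bases with those of any other gene.

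Bop1, Pes1 and Wdr12 encode the PeBoW complex, which is needed for processing of the large subunit rRNA. Bop1 (chromosome 15, 76380261 to 76477269) had 154, 142 and 147 CPM in WT and 238, 229 and 221 CPM in Yme1l-/- (0.63 ± 0.05, SE, edgeR adjusted p 4.09e-07). Pes1 had 205, 201 and 188 CPM in WT and 275, 249 and 239.9 CPM in Yme1l-/- (0.36 ± 0.06, SE, edgeR adjusted p 0.000155). Wdr12 was lower, with 77.0, 70.5 and 71.3 CPM in WT and 66.4, 64.5 and 62.5 CPM in Yme1l-/- (-0.18 ± 0.05, SE, edgeR adjusted p 0.00839). The libraries did not overlap for any of these genes. With the median of each gene's chromosome removed, none of the 3 was called and the values were 0.04 for Bop1, 0.01 for Pes1 and -0.02 for Wdr12. Under upper-quartile scaling the call for Wdr12 was lost, at -0.12 (edgeR adjusted p 0.0536). Of the transcript stretches of 100 bases in Wdr12, 1.13% also occur in 6 other genes. Their loci held 670% as many fragments as Wdr12, so exchange of fragments is possible.

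Brix1 (chromosome 15, 10474779 to 10485947), which acts in large subunit rRNA processing, had 84.0, 87.0 and 79.2 CPM in WT and 124, 128 and 124 CPM in Yme1l-/- (0.59 ± 0.05, SE, edgeR adjusted p 8.62e-07). Nop16 (0.31 ± 0.06), an early large subunit factor, and Nop2 (0.20 ± 0.06, log2 fold change ± SE), which encodes an rRNA cytosine methyltransferase, were also higher. Nop16 had 67.9, 63.1 and 60.3 CPM in WT and 83.3, 77.7 and 76.0 CPM in Yme1l-/-. Nop2 had 309, 296 and 293 CPM in WT and 369.6, 349 and 313 CPM in Yme1l-/-, and neither gene's libraries overlapped. At the other end, Rrs1 (chromosome 1, 9545408 to 9547455) had 157, 153 and 137 CPM in WT and 106, 105 and 97.5 CPM in Yme1l-/-. With -0.54 ± 0.06 (SE, edgeR adjusted p 9.77e-06) it was the lowest member. Rrs1, like Ebna1bp2, acts on early large subunit particles. Brix1 (-0.00094) and Nop2 (-0.14) were not called with chromosome medians removed, and Nop16 and Rrs1 were at 0.23 and -0.38.

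Ddx18, which encodes an RNA helicase, had 156, 158 and 150.3 CPM in WT and 128, 128 and 114 CPM in Yme1l-/- (-0.33 ± 0.05, SE, edgeR adjusted p 0.00018). Of its stretches of 100 bases 38.1% also occur in annotated pseudogenes, and the pseudogene locus in the table held 6.61% as many fragments. Rrp15 (-0.16 ± 0.05) and Rrp8 (-0.14 ± 0.05, log2 fold change ± SE), which encodes an rRNA adenine methyltransferase, were lower by less. Rrp15 had 64.8, 61.5 and 62.8 CPM in WT and 59.6, 54.9 and 55.1 CPM in Yme1l-/-. Rrp8 had 86.8, 81.7 and 86.6 CPM in WT and 81.4, 75.8 and 74.5 CPM in Yme1l-/-, so that the libraries lay close together without overlap. The call for Rrp15 was lost without Yme1l-/- replicate 2 (-0.14) or 3 (-0.14) and under upper-quartile scaling (-0.10), and with chromosome medians removed it was not called (-0.0039, edgeR adjusted p 0.952). Ddx18 was then at -0.18. The call for Rrp8 was lost without WT replicate 1 (-0.13) or 3 (-0.13), without Yme1l-/- replicate 2 (-0.13) or 3 (-0.11) and under upper-quartile scaling (-0.08). Ebna1bp2 (-0.04 ± 0.05) and Mrto4 (-0.02 ± 0.05, log2 fold change ± SE), which acts in assembly of the ribosomal stalk, were not called.

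Of the multifunctional nucleolar proteins, Gnl3 showed the clearest difference when chromosome medians were not removed. Gnl3 encodes nucleostemin, a GTPase of dividing cells, and had 209, 213 and 209 CPM in WT and 175, 170.0 and 169 CPM in Yme1l-/- (-0.30 ± 0.04, SE, edgeR adjusted p 4e-05). Ddx21, a helicase that acts on rRNA genes and snoRNAs, was higher by 0.14 ± 0.05 on the log2 scale (SE, edgeR adjusted p 0.0199), with 838, 841 and 828 CPM in WT and 927, 948 and 891 CPM in Yme1l-/-. Ncl, which encodes nucleolin, had 2291, 2425 and 2356 CPM in WT and 2124, 2210 and 2064 CPM in Yme1l-/- and was lower by a log2 fold change of -0.14 ± 0.05 (SE, edgeR adjusted p 0.0254). Npm1, which encodes nucleophosmin, had 1568, 1622 and 1539 CPM in WT and 1611, 1558 and 1520 CPM in Yme1l-/-, and no difference was detected (-0.01 ± 0.05, SE, edgeR adjusted p 0.841).

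Calls in this group depended on single libraries and on the chromosome. With chromosome medians removed Ddx21 was called lower (-0.15, edgeR adjusted p 0.0148), Ncl was at 0.01 and not called, Npm1 was called lower (-0.37) and Gnl3 stayed lower (-0.13). The call for Ddx21 was lost without WT replicate 1 (0.14) or 3 (0.13) and without Yme1l-/- replicate 2 (0.12). That for Ncl was lost without WT replicate 2 (-0.13) or 3 (-0.15), without Yme1l-/- replicate 3 (-0.12) and under upper-quartile scaling (-0.08). Npm1 shares 16.7% of its stretches of 100 bases with 5 annotated pseudogenes, whose loci held 12.2% as many fragments.

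**Figure D3:**
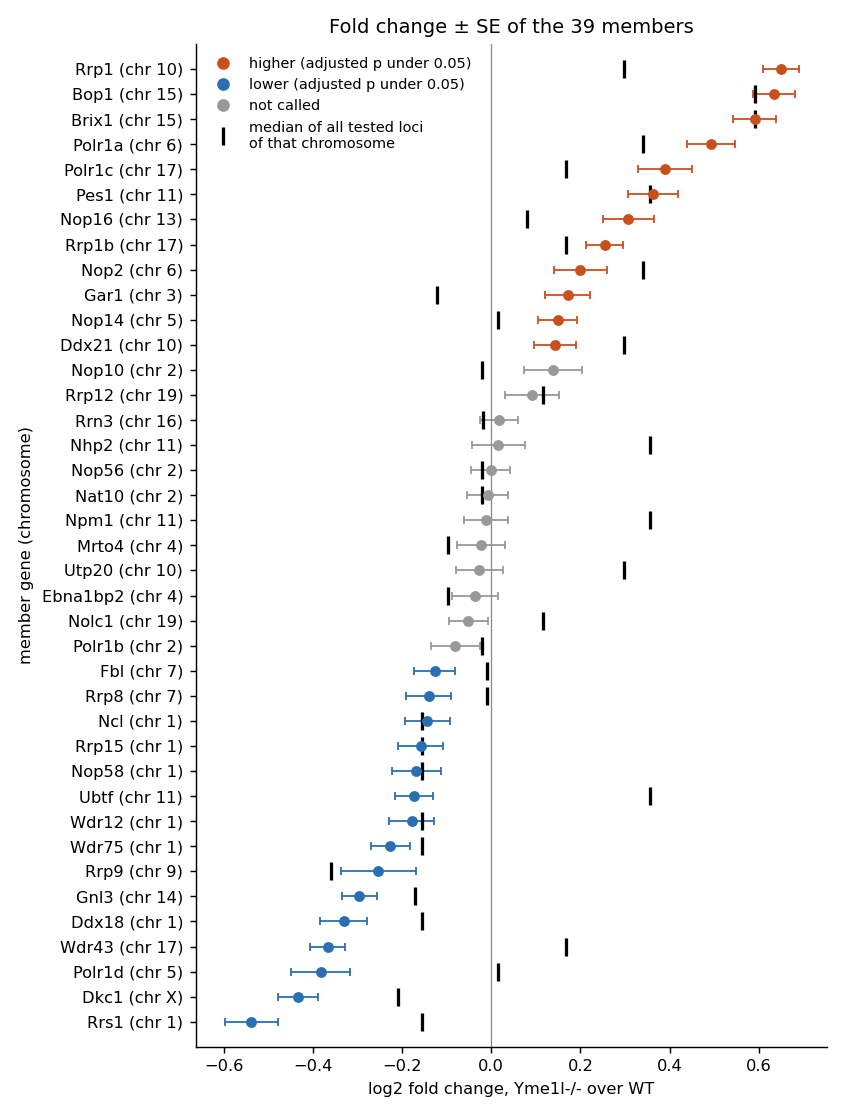
Log2 fold change of Yme1l-/- over WT (horizontal axis) with its SE (bars) for the 39 members (vertical axis, with the chromosome), coloured by the call; black ticks mark the median of all tested loci on the same chromosome. The members run from -0.54 for Rrs1 to 0.65 for Rrp1, and the ticks of Bop1, Brix1 and Pes1 lie within an SE of their points.

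Ratios between partners were then taken within each library, where the scaling cancels. They compare fragment counts that depend on transcript length, so only their change between genotypes can be read, and they are given without a test since the pairs were chosen after the values were seen. The ratio of Bop1 to Wdr12 was 2.00, 2.02 and 2.06 in WT and 3.59, 3.55 and 3.53 in Yme1l-/-. It was thus 1.75 times as high in Yme1l-/-, with little spread among cultures. The medians of their chromosomes, 0.59 for chromosome 15 and -0.15 for chromosome 1, differed in the same direction, and with them removed Bop1 and Wdr12 were at 0.04 and -0.02 on the log2 scale. Pes1 to Wdr12 changed less, to 1.45 times the WT ratio. The median of chromosome 11, where Pes1 lies, was 0.36, and with the medians removed Pes1 was at 0.01.

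Polr1c to Polr1d showed a shift of like size. Their ratio was 0.492, 0.455 and 0.411 in WT and 0.783, 0.836 and 0.702 in Yme1l-/-, 1.71 times as high in Yme1l-/-. Polr1a to Polr1b was 2.14, 2.40 and 2.42 in WT and 3.15, 3.63 and 3.58 in Yme1l-/-. With chromosome medians removed, Polr1a and Polr1b were at 0.15 and -0.06 on the log2 scale. The ratios of Dkc1 to its partners were lower in Yme1l-/-, with 0.656 times the WT ratio to Gar1, 0.673 times that to Nop10 and 0.732 times that to Nhp2. Removal of chromosome medians, which these ratios do not include, put Dkc1 (-0.22) above Nhp2 (-0.34) on the log2 scale. The ratios of Gar1 to Nop10 and of Fbl to Nop58 overlapped between the genotypes. Rrp1 to Rrp1b was 2.24, 2.28 and 2.34 in WT and 2.95, 3.07 and 3.00 in Yme1l-/-.

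**Figure D4:**
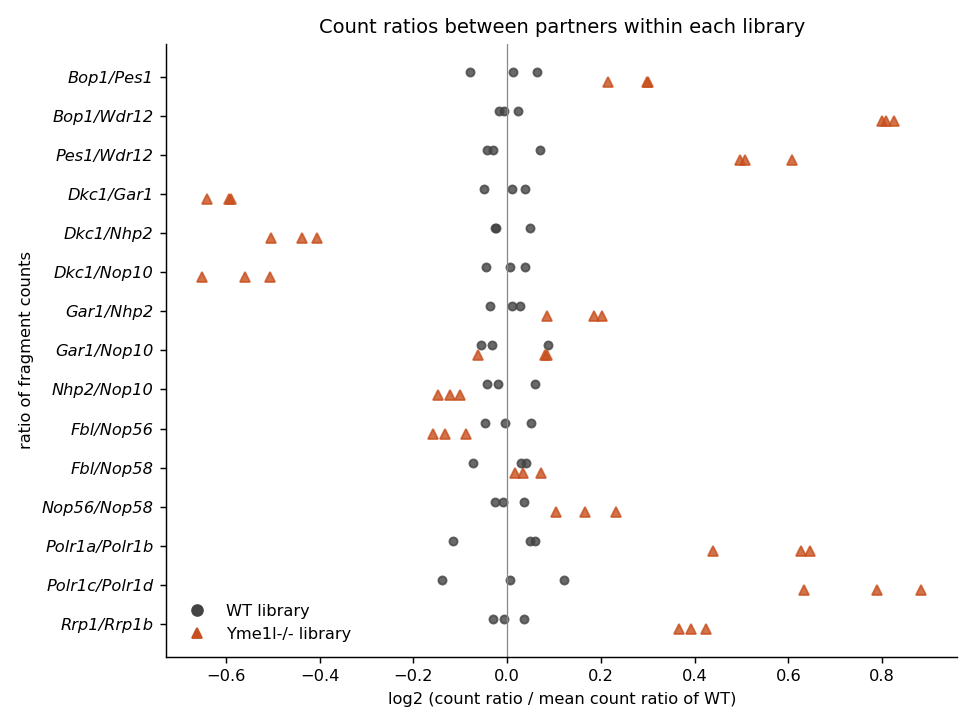
Ratio of fragment counts of 15 pairs of partners (vertical axis) in each library, as log2 over the mean ratio of WT (horizontal axis); circles are WT libraries and triangles Yme1l-/- libraries. Bop1/Wdr12 and Polr1c/Polr1d lie farthest to the right and Dkc1/Gar1 and Dkc1/Nop10 farthest to the left, while Gar1/Nop10 and Fbl/Nop58 overlap.

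Most members differed in the direction of the median of their chromosome. All 7 members on chromosome 1 (Rrs1, Wdr75, Nop58, Wdr12, Ncl, Ddx18 and Rrp15) were lower, and they lie between positions 9545408 and 186749358. Of the 794 tested loci of that chromosome 45.5% were called lower, and their median was -0.15. Both members on chromosome 15, Bop1 and Brix1, were higher, where 74.9% of 545 loci were called higher and the median was 0.59. Both on chromosome 6, Polr1a and Nop2, were higher as well, with 58.8% of 697 loci called higher and a median of 0.34. None of the 4 members on chromosome 2 (Polr1b, Nop56, Nop10 and Nat10) was called, where 62.3% of 1084 loci were called in either direction and the median was -0.02. Other chromosomes were mixed. Of 4 members on chromosome 11, 1 was higher and 1 lower, where 63.0% of 1112 loci were called higher and the median was 0.36. On chromosome 17, 2 were higher and 1 lower, with 46.7% of 668 loci called higher. Gar1 on chromosome 3 was higher, against a median of -0.12.

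Over the 39 members, 30 had the sign of their chromosome's median, as did 65.0% of all tested loci. Of the 27 called members 23 did, against 70.3% of all called loci, and 4 went against it, namely Polr1d, Wdr43, Ubtf and Gar1. Across members, which share chromosomes and are no independent replicates, the log2 fold change correlated with the chromosome median with a Pearson r of 0.69 and a Spearman rho of 0.66 (39 members, 17 chromosomes). With the median of the tested loci within 5 Mb of a member, the member itself left out, Pearson r was 0.80. No such correlation was computed for all loci, so these values cannot be read as particular to the members. The chromosome medians of all tested loci ran from -0.44 for chromosome 12 to 0.59 for chromosome 15. The loci near Bop1 had a median of 0.72 and those near Brix1 of 0.46. Near Ddx18 the median was -0.40.

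Some members departed from their neighbours. Nhp2 lay at 0.02 where the 86 loci within 5 Mb had a median of 0.53. Ubtf was lower, at -0.17, among 174 loci with a median of 0.21. Rrs1 at -0.54 was well below its 32 neighbours, whose median was -0.14. Dkc1 at -0.43 stood likewise below a median of -0.14 over 66 loci, and Rrp1 at 0.65 above a median of 0.34 over 189.

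**Figure D5:**
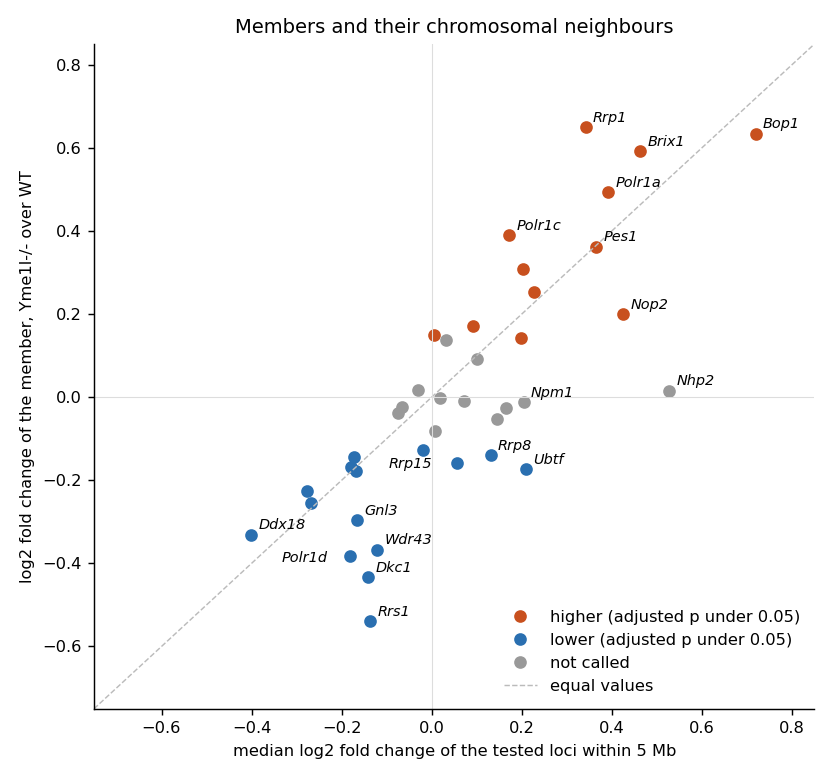
Log2 fold change of each of the 39 members (vertical axis) against the median log2 fold change of the tested loci within 5 Mb of it (horizontal axis), coloured by the call; the dashed line marks equal values. Bop1, Pes1 and Ddx18 lie near the line, Rrs1, Dkc1 and Nhp2 lie well below it, and Rrp1 and Polr1c above it.

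When each chromosome's median was removed in the fit, 20 members were called, 6 higher and 14 lower, and 15 calls kept their direction. In that fit 62.8% of all loci were called, 31.1% higher and 31.7% lower. The higher ones were Polr1a, Polr1c, Gar1, Nop14, Nop16 and Rrp1, with Rrp1 the highest. Lower with and without the removal were Polr1d, Ubtf, Fbl, Dkc1, Wdr43, Rrs1, Rrp8, Ddx18 and Gnl3. The calls of 11 members were lost, those of Bop1, Pes1, Nop2, Rrp1b and Brix1 among the higher and Nop58, Wdr75, Wdr12, Rrp15, Ncl and Rrp9 among the lower. Npm1, Nhp2, Utp20 and Nolc1 were called lower in this fit and in no other alternative, and Ddx21 turned from higher to lower.

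The remaining genes of the pathway were taken from a list of 122, of which 120 were tested. Of these 89 (74.2%) were called, 49 higher and 40 lower, against 67.7% of all loci and 75.1% of loci at the members' level, and their median log2 fold change was 0.04. With chromosome medians removed 66 (55.0%) were called, 35 higher and 31 lower, against 62.8% of all loci. The genes of small subunit assembly had 22 higher and 9 lower of 39 tested (median 0.21), and those of large subunit assembly 12 higher and 18 lower of 41 (median -0.05), beside 33.6% higher and 34.1% lower among all loci. The difference between these groups was not tested. The genes of rRNA trimming and the exosome, the complex that degrades and trims RNA from its end, had 6 higher and 6 lower of 16. These counts include loci that hold more than 1 gene, whose fragments cannot be assigned to the listed gene alone. Exosc6, called higher, shares its locus with Aars. Wdr74 (higher) and Rsl24d1 (lower), of large subunit assembly, also lie in merged loci.

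The 3 highest genes of this wider list all lay on chromosome 15. Rrp7a, a small subunit assembly factor, had 84.0, 80.8 and 76.3 CPM in WT and 204, 176 and 168 CPM in Yme1l-/- (1.18 ± 0.07, SE, edgeR adjusted p 8.48e-08). It was the single gene of the list called with at least 2-fold change, and lay at 0.59 with chromosome medians removed. Polr2f, a subunit common to the nuclear RNA polymerases, was at 0.93 ± 0.09, and Rpap3, a chaperone component for snoRNP assembly, at 0.86 ± 0.05 (log2 fold change ± SE), and with the medians removed they lay at 0.34 and 0.27. All 8 genes of the list on chromosome 15 were called higher, as were 74.9% of all tested loci of that chromosome. The 3 lowest were Utp4 (-0.65 ± 0.06), Twistnb (-0.63 ± 0.06) and Heatr1 (-0.58 ± 0.05, log2 fold change ± SE), which lay at -0.33, -0.19 and -0.66 with the medians removed.

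Heatr1 and Utp4 encode proteins of the same small subunit particle as Wdr43 and Wdr75, and Twistnb encodes a subunit of RNA polymerase I. Heatr1 had 215, 213 and 222 CPM in WT and 146, 152 and 137 CPM in Yme1l-/-. It lies on chromosome 13, where the median was 0.08, whereas Utp4 and Twistnb lie on chromosomes 8 and 12 with medians of -0.32 and -0.44. Of the 120 genes, 98 had the sign of their chromosome's median, against 65.0% of all tested loci.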

How the data were processed

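The authors mapped stranded, poly(A)-selected read pairs to mm10 (GRCm38) with HISAT2 2.0.4, assembled transcripts with StringTie 1.3.3 and compared genotypes with Cuffdiff 2.2.1. The deposited raw counts hold fragments per assembled locus of 6 libraries; the treatment of multi-mapping fragments is not given in the sources used here. The positions printed beside gene names are 1-based spans of assembled loci and need not match the ends of the named gene. The deposited comparison table gave them, with 1 pooled FPKM per genotype. Its fold changes, p-values and q-values, the authors' own test, were not used.

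The fit was made with edgeR 4.0.16 under R 4.3.3: filterByExpr (minimum count 10), TMM scaling and the quasi-likelihood test without covariates, two-sided, with Benjamini-Hochberg adjustment over all 13867 loci; calls had an adjusted p under 0.05. SEs came from the fold change and the F statistic. DESeq2 1.42.0 served as an alternative. In simulated counts with these library sizes (13795 loci tested), 81% of 100 loci with a log2 change of 0.5 and 93% of 100 loci with a change of 1 were recovered. No other loci were changed there and all had the same dispersion, whereas 67.7% of loci were called in the data. Recovery of changes as small as the members' median size, 0.17, was not simulated. Shared stretches were counted in the GENCODE M21 transcripts.

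All 39 members and Yme1l1 were named. From the wider list, which was written from general knowledge, the 3 highest and 3 lowest calls with at least 10 CPM, no overlap and an unmerged locus were named. Members and lists were chosen with earlier results of these data known. Replicate libraries differed by more than sampling noise (chi-square per degree of freedom at least 8.54). Of the 122 listed genes, 2 were not analysed here.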

Additional observations from a re-analysis of the deposited data

How the results depend on the processing

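The 13 alternatives were RLE and upper-quartile scaling, DESeq2, no filter, a stricter filter, the replicate number as a block, removal of chromosome medians and 6 fits that each left out a culture. Of the 27 called members, 12 kept call and direction in all 13: Rrp1, Polr1a, Polr1c, Nop16 and Gar1 higher, and Rrs1, Dkc1, Polr1d, Wdr43, Ddx18, Gnl3 and Ubtf lower. Each member had at least 1212 fragments in each library, and the biological coefficient of variation over all loci was 8.47%. The lower calls numbered 8 under upper-quartile scaling and 9 to 15 when a culture was left out, with 9 without Yme1l-/- replicate 3. Over all loci the lower calls were 4734 in the fit without these changes and 4204 under upper-quartile scaling. They were 4470 to 4751 when a culture was left out, with 4478 without Yme1l-/- replicate 3. The higher calls numbered 6 with chromosome medians removed, where 31.1% of all loci were called higher. The members' median was 0.037 under upper-quartile scaling.

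With chromosome medians removed, the sign turned for Brix1 (-0.00094), Ddx21 (-0.15), Nop2 (-0.14), Nhp2 (-0.34), Rrp12 (-0.024), Rrp9 (0.11), Mrto4 (0.075), Ebna1bp2 (0.061), Nop56 (0.019), Nat10 (0.012) and Ncl (0.010). Under upper-quartile scaling it turned for Nop56 (0.058), Nat10 (0.051), Npm1 (0.047), Mrto4 (0.037), Utp20 (0.032), Ebna1bp2 (0.022) and Nolc1 (0.0081). Over the fits that left out a culture, the log2 fold change crossed 0 for Ebna1bp2 (-0.085 to 0.0038), Mrto4 (-0.058 to 0.018), Nat10 (-0.030 to 0.021), Nhp2 (-0.041 to 0.053), Nop56 (-0.018 to 0.014), Npm1 (-0.033 to 0.0099) and Utp20 (-0.081 to 0.0022), none of which was called there. Removal of chromosome medians shifts each gene by construction, and upper-quartile scaling raised all members alike, by 0.059 to 0.060, and the median of all loci by 0.059, so the turns under that scaling say nothing about single members. The cause of the changes when a culture was left out was not tested.

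Equal replicate numbers did not mark pairs: after the mean of each genotype was subtracted, cultures 1, 2 and 3 of WT correlated with those of Yme1l-/- at 0.198, -0.158 and 0.048. In the fit with the replicate block 28 members were called, 13 higher and 15 lower, with Nop10 added at 0.14, and 9794 loci in all.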
